A study of Mus musculus with 6 samples.

Results

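RNA-seq of B cells with and without *Eif3e* is described here for 10 genes of the Polycomb and histone-modifying machinery that germinal center B cells depend on. *Eif3e* encodes a subunit of the translation initiation factor eIF3. The genes were chosen by name and not by a rule on their values, although earlier results of these data were known. They were the Polycomb repressive complex 2 (PRC2) genes *Ezh2*, *Ezh1*, *Eed* and *Suz12* and the histone demethylase genes *Kdm6a* and *Kdm6b*. The others were the histone methyltransferase gene *Kmt2d*, the acetyltransferase genes *Crebbp* and *Ep300*, and the deacetylase gene *Hdac3*. All 10 were in the table of 24499 genes, and all 10 were among the 13296 genes that passed the filter on low counts.

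The libraries came from in vitro germinal center B cells (iGCBs) of 3 cKO and 3 control mice on the C57BL/6J background, with 1 library per mouse. The cKO mice carried *Rosa26-YFP* LSL and *Cγ1*Cre and were *Eif3e* fl/fl. The labels call the other mice control, and the study gives *Cγ1*Cre *Rosa26-YFP* LSL for the control mice of other experiments. *Cγ1*Cre is switched on when the Ig γ1 constant region is transcribed, so deletion starts after activation. The study found deletion in few splenic B cells of young mice, and *Eif3e* in the starting naïve cells was not measured in these libraries. Naïve splenic B cells of both groups grew for 3 days on 40LB feeder cells with IL-4 at 1 ng/ml, and YFP+ cells, in which Cre had acted on the reporter, were sorted. 40LB cells are BALB/c 3T3 fibroblasts that express CD40L and BAFF, and they had received 120 Gy. The ages of the mice were not given in the sources used here.

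PRC2 places methyl groups on lysine 27 of histone H3, a mark of repressed genes. EZH2 and its paralog EZH1 are alternative catalytic subunits, and EED and SUZ12 are the core subunits that either of them needs. KDM6A (UTX) and KDM6B (JMJD3) remove the mark, KMT2D places the methyl mark of enhancers on lysine 4, CREBBP and EP300 acetylate histones at enhancers, and HDAC3 removes acetyl groups within the NCOR complexes that BCL6 recruits. EZH2 is abundant in germinal center B cells, where it holds back cell cycle inhibitors and plasma cell genes, and *EZH2*, *KMT2D*, *CREBBP* and *EP300* are recurrently mutated in lymphomas of germinal center origin.

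Of the 10 genes, 6 passed an adjusted p of 0.05 in edgeR's quasi-likelihood test. *Ezh2*, *Ep300*, *Crebbp* and *Eed* were higher in cKO iGCBs, and *Ezh1* and *Kdm6b* were lower. The background was high, since 48.6% of all tested genes passed the same threshold, 24.1% as higher and 24.5% as lower. A count of 6 in 10 was therefore near what the whole table showed. Only *Ezh2* among the 10 also changed by more than 1.5-fold, which 21% of tested genes did. The calls of *Ezh2*, *Ep300* and *Crebbp* held under each of 14 alternative settings, whereas those of *Eed*, *Ezh1* and *Kdm6b* were lost under 7, 5 and 3 of them.

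Totals ranged from 39079582 to 45504570 estimated counts per library. *Eif3e* had 173, 150 and 152 CPM (counts scaled to library size with TMM factors) in cKO replicates 1, 2 and 3 and 424, 401 and 392 CPM in control replicates 1, 2 and 3, which checks the labels, although the table does not separate the deleted exons. The log2 fold change of *Eif3e* was −1.36 (standard error 0.0657, adjusted p = 6.71e-07, edgeR), leaving 39% of the control level. *Xist*, the RNA of the inactive X chromosome, had 53272 counts in cKO replicate 2, 58899 and 70912 counts in control replicates 1 and 2, and at most 16 counts in the other libraries, in which Y chromosome genes were read instead. Female and male mice were therefore unevenly spread over the groups, and each gene's change was also fitted with a term for this library class. All 6 B cell markers were read in every library, with summed levels of 4460 to 4620 CPM among cKO libraries against 4330 to 4690 CPM among controls. The 6 germinal center markers summed to 269 to 278 CPM among cKO libraries against 355 to 427 CPM among controls, with *Bcl6*, *Gcsam* and *Mef2b* lower, *Fas* higher and *S1pr2* at 11.4 and 13.7 CPM without a call. Fibroblast markers summed to 100 to 116 CPM in cKO and 62.3 to 122 CPM in control libraries, but their members differed: of 9 tested, 3 were called higher, 2 were called lower and 4 did not pass. *Col5a1* and *Fn1* had log2 fold changes of 1.61 and 1.07, *Thbs1* and *Lox* −0.90 and −1.52, and *Fbn1* had 207, 139 and 172 counts in cKO replicates 1, 2 and 3 and 0 counts in every control library, while *Col1a1* did not pass (adjusted p = 0.154, edgeR). Myeloid markers summed to at most 13.6 CPM, with *Adgre1* called higher in cKO (4.61 ± 0.953 against 1.18 ± 0.735 CPM, SD, n = 3 each; adjusted p = 0.00203, edgeR), and T cell markers to at most 0.355 CPM. The part of these differences in the results below was not tested, and in bulk RNA fewer cells of a type cannot be told apart from less RNA per cell.

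**Figure D1:**
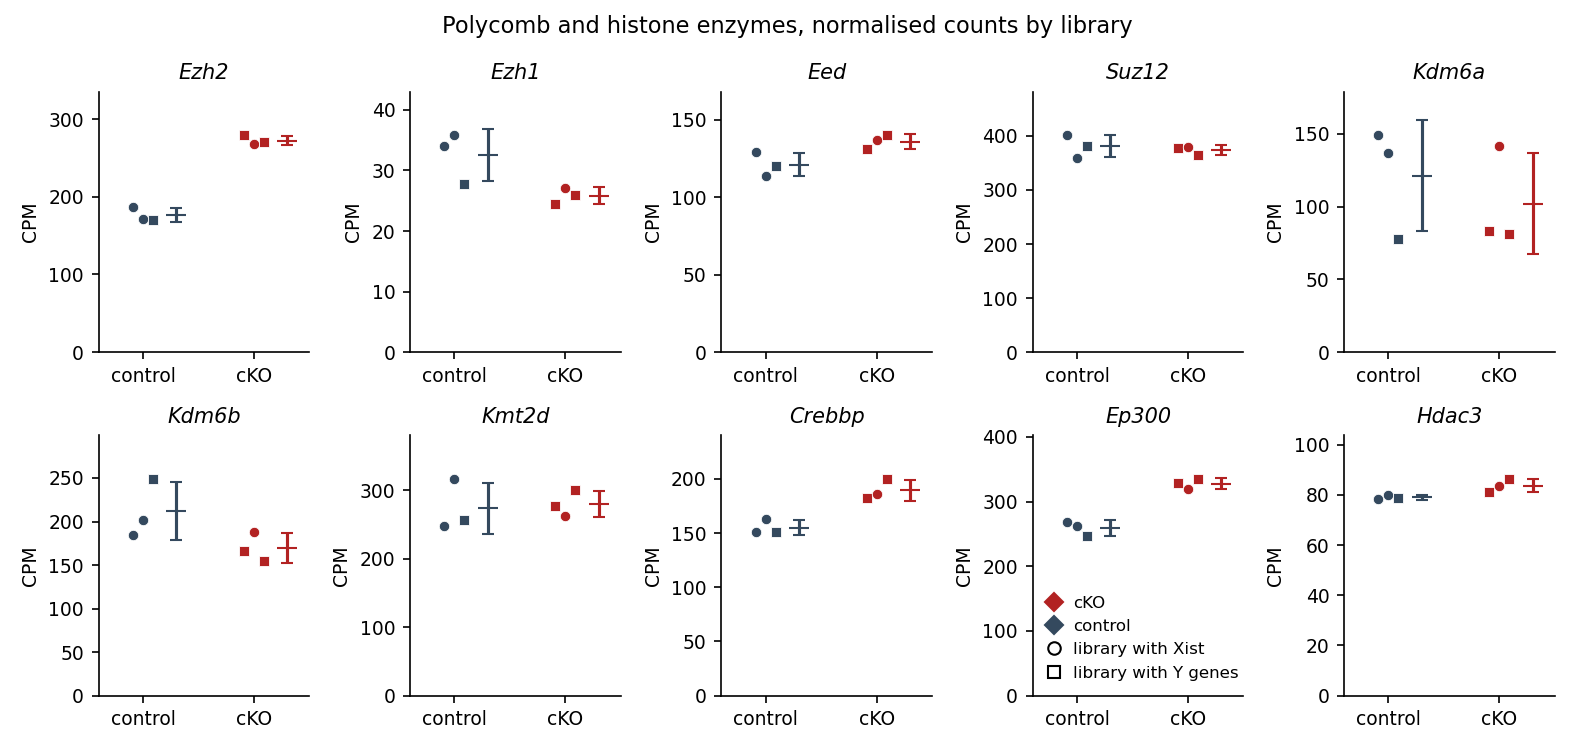
Normalised counts (CPM) of the 10 genes in each library, control in blue and cKO in red, circles for libraries with *Xist* and squares for libraries with Y chromosome genes, with the mean and SD of 3 libraries at the right of each group. The cKO libraries of *Ezh2*, *Crebbp* and *Ep300* lie clear of the control libraries, whereas *Kdm6a* splits by library class and not by group.

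*Ezh2* spans chr6:47530274-47595270 on the minus strand of GRCm38.p6, and *Suz12* (chr11:79993106-80034123, plus strand) and *Ezh1* (chr11:101191115-101226463, minus strand) lie on one chromosome. The RefSeq promoter records from 250 bases before to 20 bases after the transcript start are printed for *Ezh2* (chr6:47595011-47595280), *Ezh1* (chr11:101226444-101226713) and *Suz12* (chr11:79992856-79993125), because *Ezh2* was called higher, its paralog *Ezh1* was called lower and their partner *Suz12* was not called. Capitals mark exact matches, on either strand, to CCAAT or to the E2F-type octamers TTTCCCGC, TTTCGCGC, TTTGCCGC and TTTGGCGC.
Ezh2: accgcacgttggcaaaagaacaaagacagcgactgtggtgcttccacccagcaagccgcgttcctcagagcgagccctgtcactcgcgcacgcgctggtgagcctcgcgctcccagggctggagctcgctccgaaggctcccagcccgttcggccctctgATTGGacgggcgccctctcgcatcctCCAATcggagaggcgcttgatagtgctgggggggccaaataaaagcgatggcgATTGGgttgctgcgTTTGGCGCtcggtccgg
Ezh1: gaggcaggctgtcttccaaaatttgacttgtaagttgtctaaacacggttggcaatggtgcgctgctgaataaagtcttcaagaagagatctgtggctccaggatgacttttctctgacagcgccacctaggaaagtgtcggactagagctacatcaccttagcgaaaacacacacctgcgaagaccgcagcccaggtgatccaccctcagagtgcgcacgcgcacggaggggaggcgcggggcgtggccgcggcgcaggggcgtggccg
Suz12: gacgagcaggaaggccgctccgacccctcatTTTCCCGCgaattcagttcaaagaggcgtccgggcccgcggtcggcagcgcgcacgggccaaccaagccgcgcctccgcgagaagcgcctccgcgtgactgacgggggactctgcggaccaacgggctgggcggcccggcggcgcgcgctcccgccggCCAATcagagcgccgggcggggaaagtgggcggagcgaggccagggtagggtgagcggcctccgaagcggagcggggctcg

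The start in the *Ezh2* record lies inside the gene span given above, so most of its printed bases fall within that span. The starts in the *Ezh1* and *Suz12* records match the ends of their spans. Counted from the record's start, *Ezh2* held CCAAT matches whose first bases were 90, 64 and 11 bases before it. The octamer TTTGGCGC began at base 4 of the record's transcript. *Suz12* held TTTCCCGC 219 bases before its start and 1 CCAAT match at 61 bases before it. The *Ezh1* record held neither set of letters. Over whole records, from 250 bases before to 50 bases after the start, an E2F-type octamer occurred in 2.26% of 32851 mouse promoters and CCAAT in 37.4%. The motifs were chosen after the expression values were known, and a match is a description of letters, not of a bound site. The reads of *Ezh2* and *Suz12* can include those of lincRNA or pseudogene models annotated on the opposite strand (*Gm26625* and *Gm44282* at *Ezh2*, *Gm26563* at *Suz12*), and so can those of *Eed* with *E230029C05Rik*, since the strand setting of the counting was not given in the sources used here.

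*Ezh2* was higher in cKO iGCBs in every library. Its level was 279, 268 and 270 CPM in cKO replicates 1, 2 and 3 and 187, 172 and 170 CPM in control replicates 1, 2 and 3. The lowest cKO library thus lay well above the highest control library. The mean was 272 ± 5.68 CPM (SD, n = 3) for cKO against 176 ± 9.56 CPM (SD, n = 3) for control iGCBs, a 1.55-fold difference. The fitted change on the log2 scale was 0.63 (standard error 0.0525, 95% interval 0.53 to 0.73, adjusted p = 9.1e-06, edgeR), larger in size than that of 73.5% of tested genes. Among libraries with *Xist* the log2 difference of the *Ezh2* means was 0.58, and among those with Y chromosome genes it was 0.69. *Ezh2* is often read together with proliferation, and in these libraries the 20 proliferation genes summed to 5800 to 6040 CPM among cKO libraries against 6560 to 6840 CPM among controls. Of these 20, 2 were higher, 8 were lower and 10 did not pass the test. Over all tested genes, 24.1% were higher and 24.5% lower. *Ccne2* (log2 fold change 0.45) and *Mcm5* (0.20) were the higher genes. *Mki67* (−0.49) and *E2f2* (−0.82) were among the lower ones, and *E2f1* (−0.08) was among those that did not pass. *Mki67*, the gene of the highest level in this sum, had a mean of 944 CPM in cKO against 1330 CPM in control libraries. Whether proliferation bears on the level of *Ezh2* was not tested.

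*Ezh1*, the paralog that predominates in resting cells, went the other way at a much lower level. It had 24.4, 27.1 and 26 CPM in cKO replicates 1, 2 and 3, against 34.1, 35.8 and 27.7 CPM in the control replicates. The groups did not overlap, but control replicate 3 lay only just above the highest cKO library. The log2 fold change of *Ezh1* was −0.33 (standard error 0.108, adjusted p = 0.026, edgeR), at 79.3% of the control level. With a term for library class it was −0.25 (adjusted p = 0.0568), and the call was also lost without cKO replicate 1, cKO replicate 3, control replicate 1 or control replicate 2 (adjusted p from 0.0681 to 0.0936).

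*Eed* and *Suz12*, the noncatalytic core, moved little. *Eed* (chr7:89954654-89980976) had 131, 137 and 140 CPM in cKO replicates 1, 2 and 3, against 129, 114 and 120 CPM in the control replicates. The lowest cKO library lay next to the highest control library. Its fitted change on the log2 scale was 0.16 (standard error 0.0594, adjusted p = 0.0424, edgeR), and this call was lost with the class term (adjusted p = 0.0753) and without cKO replicate 2, cKO replicate 3, control replicate 2 or control replicate 3 (adjusted p up to 0.162). *Suz12* had 378, 380 and 364 CPM in cKO replicates 1, 2 and 3, against 401, 360 and 381 CPM in the control replicates, so the groups overlapped. Its log2 fold change was −0.02 (95% interval −0.13 to 0.08, adjusted p = 0.734, edgeR).

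**Figure D2:**
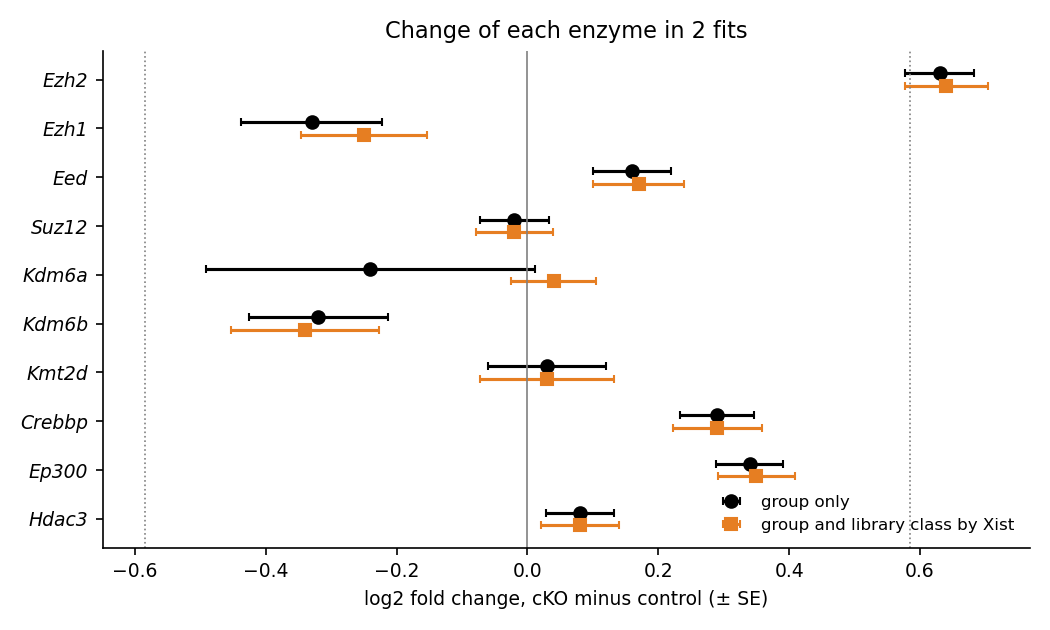
Log2 fold change of each gene, cKO minus control, with its standard error, from a fit with the group only (black circles) and from one with a term for library class (orange squares), and dotted lines at 1.5-fold in either direction. *Ezh2* at 0.63 is the only gene past 1.5-fold, and *Kdm6a* moves from −0.24 to 0.04 when library class is in the fit.

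The balance of PRC2 transcripts, not of the proteins, can be read inside each library, where the scaling between libraries does not enter. Divided by transcript length, *Ezh2* stood at 100, 96.4 and 96.9 CPM per kilobase in cKO replicates 1, 2 and 3, against 67.2, 61.6 and 60.9 CPM per kilobase in the control replicates. *Suz12* stood at 86.7, 87.2 and 83.6 CPM per kilobase in cKO replicates 1, 2 and 3, against 91.8, 82.6 and 87.5 CPM per kilobase in the control replicates. The order of these subunits thus switched in every library. The ratio of *Ezh2* to *Suz12* per kilobase was 1.15, 1.11 and 1.16 in cKO and 0.732, 0.746 and 0.696 in control iGCBs. *Ezh2* made up 94.1% ± 0.401 (SD, n = 3) of the *Ezh1* plus *Ezh2* level per kilobase in cKO and 89.1% ± 1.2 (SD, n = 3) in control iGCBs (exact permutation p = 0.1, two-sided, which is the lowest value possible with 3 libraries a group).

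The log2 ratio of *Ezh1* to *Ezh2* was lower in cKO by a difference of −0.96, that of *Suz12* to *Ezh2* by −0.65 and that of *Eed* to *Ezh2* by −0.46. None of these 3 ratios overlapped between groups, and each had a two-sided exact permutation p of 0.1, or 0.167 after Benjamini-Hochberg adjustment over the 5 ratios computed. All 3 have *Ezh2* as the denominator, so they are not independent of each other or of the change of *Ezh2* given above. The ratio of *Ep300* to *Crebbp* differed by 0.05 (exact permutation p = 0.5, adjusted 0.625) and that of *Kdm6b* to *Kdm6a* by −0.08 (exact permutation p = 0.9, adjusted 0.9), with overlapping groups in both.

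**Figure D3:**
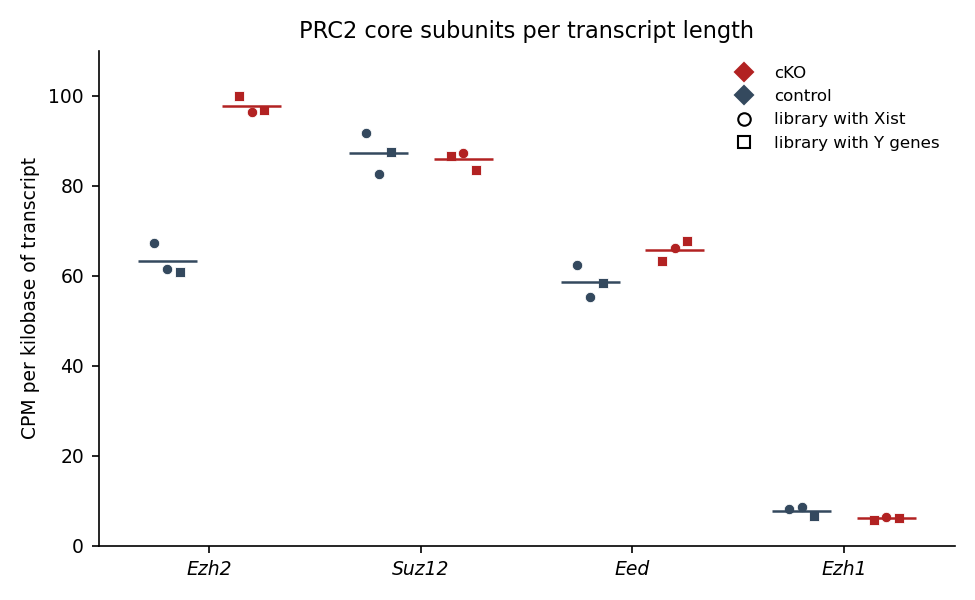
CPM per kilobase of transcript for the PRC2 core genes in each library, control in blue and cKO in red, circles for libraries with *Xist* and squares for those with Y chromosome genes, with a line at the mean of 3 libraries. *Ezh2* lies below *Suz12* in every control library and above it in every cKO library.

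Per kilobase, the order of the mean control levels was *Suz12* (87.3), *Ezh2* (63.2), *Eed* (58.7), *Hdac3* (38.9), *Kdm6b* (31.9), *Ep300* (27.1), *Kdm6a* (20.5), *Crebbp* (14.3), *Kmt2d* (13.8) and *Ezh1* (7.76 CPM per kilobase). The libraries of *Ezh2* and *Eed*, of *Kdm6b* and *Ep300*, of *Kdm6a* and *Crebbp*, and of *Crebbp* and *Kmt2d* overlapped, so these neighbours were not set apart. In cKO iGCBs *Ezh2* led at 97.8 CPM per kilobase, *Suz12* followed at 85.8, and *Ep300* at 34.3 stood above *Kdm6b* at 25.5.

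The 2 acetyltransferase genes rose together. *Ep300* (chr15:81586209-81652077) had 329, 319 and 335 CPM in cKO replicates 1, 2 and 3, against 269, 262 and 246 CPM in the control replicates. *Crebbp* (chr16:4081334-4213957) had 182, 186 and 200 CPM in cKO replicates 1, 2 and 3, against 151, 163 and 151 CPM in the control replicates. For both genes every cKO library exceeded every control library. *Ep300* was 1.26-fold higher (log2 fold change 0.34, standard error 0.0511, adjusted p = 0.000368, edgeR) and *Crebbp* 1.22-fold higher (log2 fold change 0.29, standard error 0.0565, adjusted p = 0.00178, edgeR). Under the alternative settings *Ep300* ranged from 0.30 to 0.37 and *Crebbp* from 0.25 to 0.32 on the log2 scale, and both were positive within each library class. These were modest changes, larger in size than those of 48.7% and 43.2% of tested genes.

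*Hdac3*, whose product opposes these enzymes, had 81.1, 83.5 and 86.4 CPM in cKO replicates 1, 2 and 3, against 78.3, 80 and 78.7 CPM in the control replicates. All 3 cKO libraries lay above the control libraries, by a small margin. Its log2 fold change was 0.08 (95% interval −0.02 to 0.18, adjusted p = 0.217, edgeR). In all, 6 of the 10 genes had no overlap between groups, where 58.7% of tested genes had none.

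*Kmt2d* (chr15:98831669-98874077) had 277, 263 and 301 CPM in cKO replicates 1, 2 and 3, against 248, 317 and 257 CPM in the control replicates. Control replicate 2 was the highest of all 6 libraries and control replicate 1 the lowest. The log2 fold change was 0.03 (95% interval −0.15 to 0.21, adjusted p = 0.802, edgeR), and its sign changed without cKO replicate 3, control replicate 1 or control replicate 3.

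*Kdm6b* (chr11:69398508-69420367), an inducible demethylase gene, had 166, 188 and 155 CPM in cKO replicates 1, 2 and 3, against 185, 202 and 249 CPM in the control replicates. The groups overlapped, because cKO replicate 2 exceeded control replicate 1, and control replicate 3 stood above the rest. The fitted change on the log2 scale was −0.32 (standard error 0.106, adjusted p = 0.0272, edgeR). Without control replicate 3 it was −0.19 (adjusted p = 0.0795), and the call was also lost without cKO replicate 1 (adjusted p = 0.082) or cKO replicate 3 (adjusted p = 0.0977). The log2 difference of the *Kdm6b* means was −0.64 among libraries with Y chromosome genes, where control replicate 3 was the only control, and −0.05 among libraries with *Xist*. Reads of *Kdm6bos*, annotated as antisense to *Kdm6b*, cannot be told apart from its own without the strand setting.

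*Kdm6a* lies on the X chromosome (chrX:18160862-18279936) and escapes X inactivation, and *Uty* is its Y-linked paralog (chrY:1085187-1245773). Their promoter records (chrX:18162325-18162594 and chrY:1245740-1246009) are printed because the pair divides between the library classes. Capitals mark CACGTG, or CCAAT on either strand.
Kdm6a: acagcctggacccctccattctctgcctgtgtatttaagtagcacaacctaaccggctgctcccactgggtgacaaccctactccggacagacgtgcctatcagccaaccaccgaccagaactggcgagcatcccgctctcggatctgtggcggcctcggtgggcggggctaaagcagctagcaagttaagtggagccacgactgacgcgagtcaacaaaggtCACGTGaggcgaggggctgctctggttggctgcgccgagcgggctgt
Uty: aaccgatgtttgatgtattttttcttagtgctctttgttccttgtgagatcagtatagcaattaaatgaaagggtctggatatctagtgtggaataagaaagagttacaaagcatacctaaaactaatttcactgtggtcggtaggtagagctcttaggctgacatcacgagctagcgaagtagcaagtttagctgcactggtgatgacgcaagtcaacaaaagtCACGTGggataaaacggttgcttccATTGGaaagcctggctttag

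The starts in these records lie inside the gene spans given above, that of *Kdm6a* farther in than that of *Uty*. Distances here are counted from the records' starts, not from the ends of the spans. CACGTG, found in 7.15% of the promoter records, began 27 bases before the start of *Kdm6a* and 25 bases before that of *Uty*. The longest run the 2 promoters shared was 10 bases, agtcaacaaa, which began 40 bases before the start of *Kdm6a* and 38 bases before that of *Uty*.

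*Kdm6a* had 83.5, 142 and 81 CPM in cKO replicates 1, 2 and 3, against 149, 137 and 77.8 CPM in the control replicates. Its 3 high libraries were the 3 with *Xist*, and they came from both groups. The comparison of cKO with control gave a log2 fold change of −0.24 (standard error 0.252, 95% interval −0.74 to 0.25, adjusted p = 0.459, edgeR), and this value ranged from −0.56 without cKO replicate 2 to −0.07 without control replicate 1. With library class in the fit, the group difference of *Kdm6a* was 0.04 (standard error 0.0648, adjusted p = 0.669, edgeR). The class difference itself was 0.83 on the log2 scale (standard error 0.065, adjusted p = 0.000579, edgeR), or 1.78-fold higher in libraries with *Xist*.

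Of all tested genes, 10, or 0.0752%, had a class difference past the threshold, and *Kdm6a* was one of them. The others were *Xist*, *Gm44504*, *Eif2s3x* and *Kdm5c* on the X chromosome, *Ddx3y*, *Eif2s3y*, *Kdm5d* and *Uty* on the Y chromosome, and *Gm18853* on chromosome 7. Among genes that escape inactivation, the class difference was 0.65 for *Eif2s3x* (adjusted p = 0.0071), 0.51 for *Kdm5c* (adjusted p = 0.00796) and 0.07 for *Ddx3x* (adjusted p = 0.999) on the log2 scale (edgeR).

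*Uty* had 680 and 819 counts in cKO replicates 1 and 3, 457 counts in control replicate 3 and 0 counts in the libraries with *Xist*. Per kilobase, *Kdm6a* plus *Uty* came to 17, 24.1 and 17.5 CPM in cKO replicates 1, 2 and 3, against 25.1, 23.1 and 15.5 CPM in the control replicates. Adding the paralog thus narrowed the gap between the classes without closing it. Reads that match both paralogs could be split between them by the authors' quantification, so the share of each is uncertain.

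**Figure D4:**
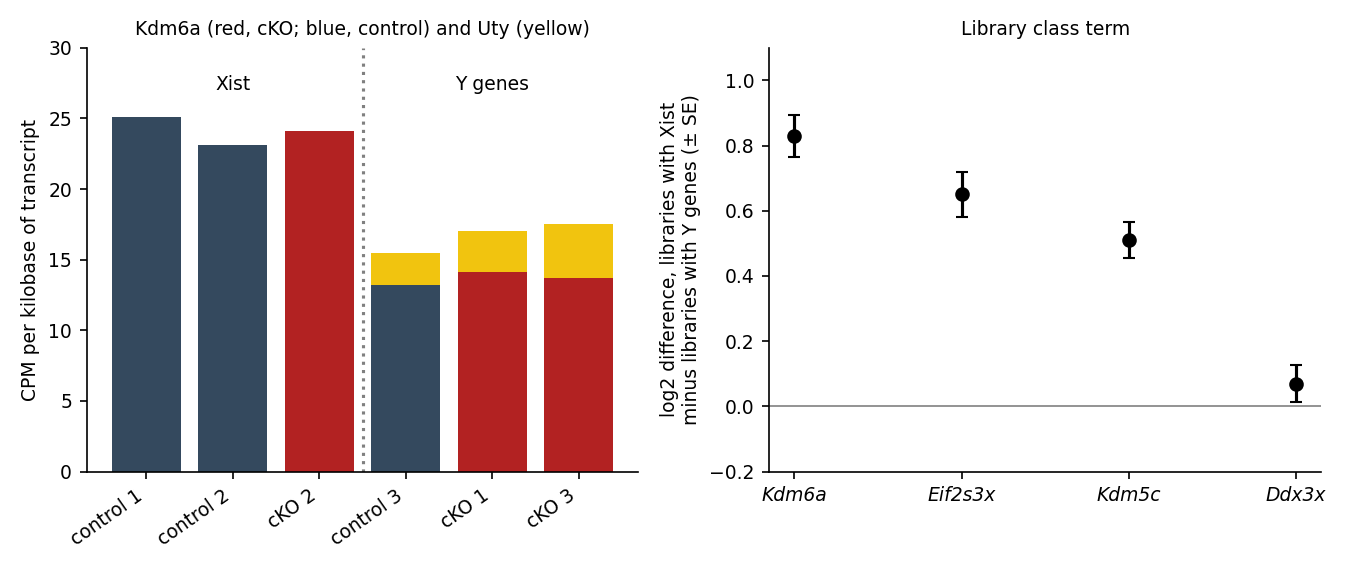
Left, CPM per kilobase of transcript for *Kdm6a* (blue in control, red in cKO) with *Uty* stacked on it (yellow), with libraries ordered by class. Right, the log2 class difference, libraries with *Xist* minus libraries with Y chromosome genes, with its standard error for 4 X-linked genes. Libraries with *Xist* reach 23.1 to 25.1 and those with Y chromosome genes 15.5 to 17.5 CPM per kilobase for the sum.

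Only 3 of the 10 genes, *Ezh2*, *Suz12* and *Kdm6a*, had more than 1 transcript in the transcript table. edgeR's diffSpliceDGE called transcript use for none of them at an adjusted p of 0.05 (adjusted p = 0.783, 0.545 and 0.957), which 3.28% of the 2990 genes tested passed. None of them passed an unadjusted p of 0.05 either. The main *Ezh2* transcript held 86.2% to 91.2% of the gene's counts in each library. The minor *Kdm6a* transcript ranged from 1% in cKO replicate 1 to 22.4% in control replicate 1 with no order by group.

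The genes whose log2 CPM ran most like *Ezh2* over the 6 libraries, among 8513 genes with a mean of at least 10 CPM, were *Hipk2*, *Wdr82* and *Psmd14*, each with a Pearson r of 0.999. All 3 were higher in cKO, and since the libraries form 2 groups, the group difference enters this likeness. The genes most like *Kdm6a* were *Pbdc1* (0.967), which is X-linked, *Plcxd2* (0.967) and *Zdhhc14* (0.958).

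PRC2 joins accessory subunits that steer it to chromatin. Of 8 tested, 3 were higher, 2 were lower and 3 did not pass the test, with a median log2 fold change of 0.01 where all tested genes had −0.004 and 48.6% of them were called. *Aebp2* rose most, from 154 ± 4.48 to 252 ± 8.66 CPM (SD, n = 3 each; log2 fold change 0.71, adjusted p = 3.47e-06, edgeR). *Rbbp7*, which encodes a histone chaperone also found in deacetylase complexes, rose by 0.50 and *Mtf2* by 0.31 on the log2 scale, whereas *Phf1*, which like *Mtf2* encodes a Polycomb-like subunit, had −0.39 and *Jarid2* −0.21.

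PRC1, which ubiquitinates histone H2A and binds the PRC2 mark through its CBX subunits, had 9 of 24 genes higher, 6 lower and 9 not called, with a median of 0.09. Over all tested genes, 24.1% were higher and 24.5% lower. *Cbx7* fell from 79 ± 3.97 to 51.6 ± 5.21 CPM (SD, n = 3 each; log2 fold change −0.61, adjusted p = 0.000148, edgeR), and *Cbx6* had −0.46. *Bmi1*, which marks canonical PRC1, rose from 70.6 ± 4.6 to 120 ± 7.97 CPM (SD, n = 3 each; log2 fold change 0.76, adjusted p = 1.49e-05, edgeR). *Pcgf5* had 0.72. *Scml2* had the largest fitted value, 2.93, at 58, 66 and 38 counts in cKO and 9, 0 and 11 counts in control replicates 1, 2 and 3.

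The COMPASS family, the methyltransferase complexes of KMT2D and its relatives, had 10 of 15 genes higher, 2 lower and 3 not called, with a median of 0.26, where 24.1% of all tested genes were higher and 24.5% lower. Among its members were the shared core subunit gene *Wdr5* (0.74), *Pagr1a* (0.86) and *Ncoa6* (0.38) of the KMT2C and KMT2D complexes, *Setd1b* (0.52) and *Hcfc1* (0.40). The paralog *Kmt2c* had −0.22 and *Ash2l* −0.21, both called lower. The catalytic subunit gene *Kmt2d*, described above, was not among those that passed.

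Of 10 other histone acetyltransferase genes 4 were higher, 2 lower and 4 not called (median 0.12), with *Kat2a* at 0.51, *Ncoa1* at 0.27, *Kat2b* at −0.38 and *Kat5* at −0.32. Of 10 other deacetylase genes 2 were higher, 4 lower and 4 not called (median −0.05). In each of these 2 lists 60% were called, where 48.6% of all tested genes were, 24.1% as higher and 24.5% as lower. The class I gene *Hdac2* rose from 66.9 ± 1.19 to 123 ± 3.69 CPM (SD, n = 3 each; log2 fold change 0.88, adjusted p = 1.67e-06, edgeR), while *Hdac11* had −1.36, *Hdac5* −0.79 and *Hdac9* −0.61. Of 6 genes for HDAC3's corepressor partners, *Tbl1x* (0.43), *Ncor1* (0.28) and *Gps2* (0.15) were higher, *Bcl6*, the repressor that recruits them, was lower (−0.32), and *Tbl1xr1* (0.17) was among those that did not pass.

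**Figure D5:**
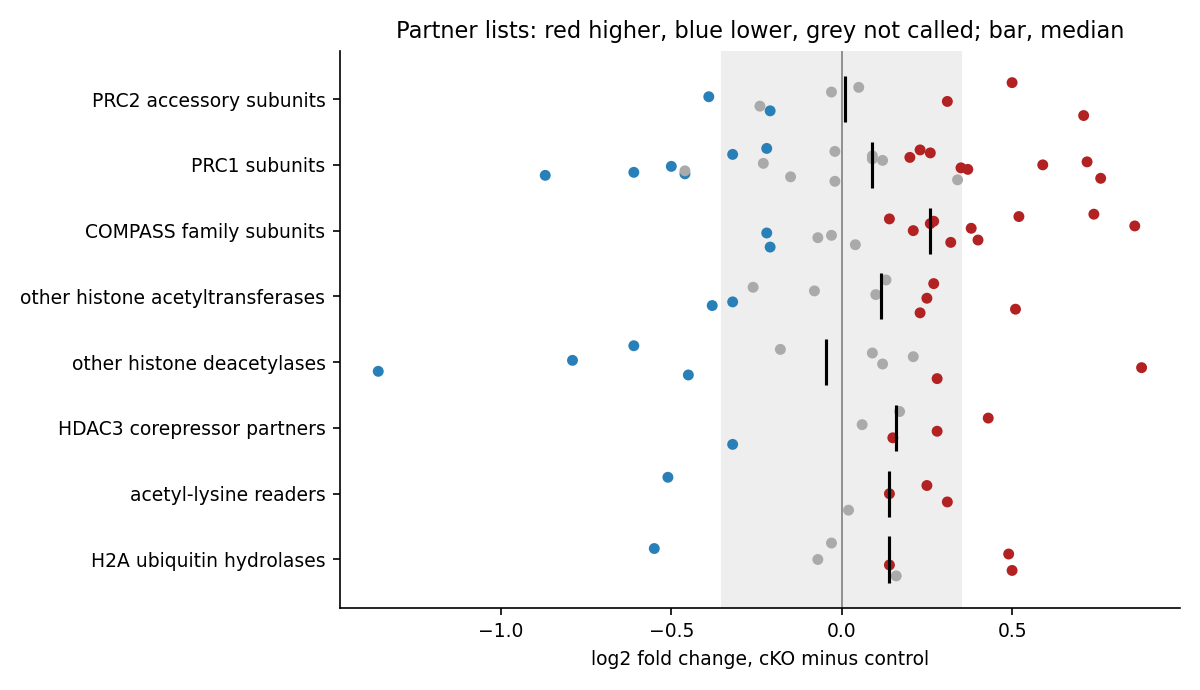
Log2 fold change, cKO minus control, of each tested gene in 8 lists of partner genes, red for called higher, blue for called lower and grey for not called, with a bar at each list's median and a grey band over the middle 50% of all tested genes. *Scml2* at 2.93 lies beyond the axis and is not drawn but counts in the PRC1 median, and the COMPASS family has the highest median, 0.26.

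Genes that EZH2 is known to repress in germinal center B cells did not move one way. *Cdkn1a*, a cell cycle inhibitor gene, had 37.1 ± 9.63 CPM among cKO libraries against 25.7 ± 0.372 CPM among controls (SD, n = 3 each; log2 fold change 0.53, adjusted p = 0.0154, edgeR), and *Irf4*, which promotes plasma cell differentiation, was higher by 0.42. The inhibitor gene *Cdkn1b* was lower (−0.57), and so was *Prdm1*, which encodes the plasma cell regulator BLIMP1, at 18.2 ± 1.58 CPM among cKO libraries against 39.8 ± 14.7 CPM among controls (SD, n = 3 each; log2 fold change −1.13, adjusted p = 0.00161, edgeR). *Cdkn2a* had −0.39 and did not pass (adjusted p = 0.126, edgeR).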

How the data were processed

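Poly(A) RNA of sorted day 3 YFP+ iGCBs from 3 cKO and 3 control mice was sequenced, and samples were grouped by their labels. Some of the labels' protocols give a longer culture. The authors trimmed reads, aligned them with HISAT2 to mm10, quantified them with StringTie and deposited estimated counts per gene and per transcript, written by prepDE, without normalization and already whole. Tool versions and prepDE's read length setting were not given in the sources used here, so totals are not numbers of sequenced fragments. The smallest level that the floor of 3 counts allows was 0.0659 to 0.0768 CPM, which covers counting error only.

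In R 4.3.3, genes were kept with edgeR 4.0.16 (filterByExpr, minimum count 10), scaled with TMM factors and compared by the quasi-likelihood test without covariates, with Benjamini-Hochberg adjustment over 13296 genes. Library class was set by *Xist* above 1000 counts. DESeq2 1.42.0 was an alternative, as were other size factors, filters and scales, the replicate number as a block, the class term and each library left out in turn. Transcript lengths and overlaps came from GENCODE M21 on GRCm38, gene locations and promoters from RefSeq tables of GRCm38.p6, matched by symbol. These held promoter records for 8 of the 10 genes (not for *Kdm6b* and *Hdac3*) and for *Uty*, and 34674 of 36026 transcripts matched.

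Genes named beside the 10 are, per list, up to 4 called genes with the largest change (lists of 6 or fewer in full), up to 3 genes of each proliferation or larger marker list, genes of library class, and the 3 genes most like *Ezh2* and *Kdm6a*. Some genes of the lists are not reported here by name. *Cbx6*, *Cbx7*, *Jarid2*, *Ncoa6*, *Kmt2c*, *Ash2l* and some of the proliferation and fibroblast genes fall outside this rule. They were chosen after their values were seen, and so were the other proliferation and fibroblast genes, since the rule does not say which 3 to name. The 10 genes and all lists were chosen with earlier results of these data known. On simulated data with 200 of 13208 genes changed 2-fold, edgeR recovered 98.5% and called 12 unchanged genes. The simulation gave every gene the same dispersion and held no smaller changes, so it does not cover the smaller changes of the 10 genes. With 3 mice a group, an exact permutation test cannot go below p = 0.1.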

Additional observations from a re-analysis of the deposited data

How the results depend on the processing

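Across all alternatives that kept the adjusted p threshold alone, between 5556 and 6557 genes passed, and 2793 did when a change over 1.5-fold was also required. Of the 10 genes, 6 passed in the main analysis, 4 with a term for library class, 1 with the 1.5-fold requirement, and 3 to 5 when single libraries were left out. Of 85 partner genes tested, 56 (65.9%) passed, where 48.6% of all tested genes did, and 44 to 57 passed under the alternatives. *Ezh2* kept a log2 fold change of 0.60 to 0.68. The sign reversed, for values that did not pass in the main analysis, for *Suz12* without control replicate 1 (0.01; range −0.07 to 0.01 over the libraries left out), *Kmt2d* without cKO replicate 3 (−0.02), control replicate 1 (−0.03) or control replicate 3 (−0.01; range −0.03 to 0.14), *Kdm6a* with the class term (0.04) and, with the class term, without control replicate 3 (−0.01; range −0.01 to 0.08 over the libraries left out). The log2 ratio of *Kdm6b* to *Kdm6a* reversed to 0.11 without cKO replicate 2 and to 0.33 without control replicate 3, with a range of −0.35 to 0.33. The causes were not tested.

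Same-numbered libraries deviated together with correlations of 0.001, 0.114 and 0.216, so the numbers were not taken to pair the mice. With the replicate block 6234 genes and 5 of the 10 passed, *Eed* being lost (adjusted p = 0.0792). With the block and the class term together, the class difference of *Kdm6a* was 0.89 (adjusted p = 0.106). *Scml2* was read at 0 to 66 counts per library, which limits the precision of its value.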

Other observations

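Readers and erasers downstream of the 10 genes varied in direction. Among genes for bromodomain proteins, which bind acetylated histones, *Brd3* (log2 fold change 0.31) and *Brd7* (0.25) were higher, *Brd9* was lower (−0.51) and *Brd2* (0.02) did not pass edgeR's test. Of 7 tested genes for enzymes that remove the PRC1 mark from H2A and their cofactors, 3 were higher, 1 was lower and 3 did not pass, with a median of 0.14. Over all tested genes, 24.1% were higher and 24.5% lower. *Asxl2* rose from 84.5 ± 4.83 to 120 ± 2.5 CPM (SD, n = 3 each; log2 fold change 0.50, adjusted p = 6.17e-05, edgeR), *Foxk2* had 0.49, the catalytic subunit gene *Bap1* 0.14 and *Mysm1* −0.55.

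*Hox* genes, which Polycomb complexes repress in most differentiated cells, were nearly silent. Of 39, 9 passed the filter on low counts, 8 were at 0 in every library, and all 39 together summed to 6.58 to 7.69 CPM in cKO and 4.91 to 9.64 CPM in control libraries. *Hoxb2* was called lower (adjusted p = 0.0481, edgeR), at 0, 5 and 0 counts in cKO and 16, 10 and 12 counts in control replicates 1, 2 and 3. Of the plasma cell markers 2 were higher and 3 lower, with *Jchain* at a log2 fold change of −4.00, *Sdc1* at 1.60 and *Xbp1* at −1.10.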
